A study of Mus musculus with 6 samples.

Results

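A group of 9 genes that encode histone H3 lysine 9 (H3K9) demethylases was followed across H3K79me2 chromatin immunoprecipitation sequencing (ChIP-seq) libraries of N2a cells: Kdm3a, Kdm3b and Jmjd1c of the KDM3 family, Kdm4a, Kdm4b, Kdm4c and Kdm4d of the KDM4 family, and Kdm1a and Kdm7a. They are 9 of the 21951 protein-coding genes of the mouse GENCODE annotation, release 21, on build mm10. For each gene the share of its body plus 3 kb upstream that lay under the H3K79me2 peaks of a library was measured, here called its covered percent. N2a is a mouse neuroblastoma cell line. The cells were transfected with a pLKO.1 plasmid that carried either a non-target control hairpin (CTR) or a single hairpin against Npm1 (NPM1 KD), were selected with puromycin and were harvested after 3 days. Each group had 2 H3K79me2 libraries from separate passages and transfections, numbered CTR 1, CTR 2, NPM1 KD 1 and NPM1 KD 2, and 1 pooled input that was not analysed here. Where a sentence gives a value for each library, CTR 1 comes before CTR 2 and NPM1 KD 1 before NPM1 KD 2. The question was whether a wider H3K79me2 coverage of Kdm3a in NPM1 KD cells was shared by its paralogues.

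H3K79me2 is set by the methyltransferase DOT1L on nucleosomes of transcribed genes, is strongest just downstream of the start and fades along the body, so the length it covers tells how far into a gene the mark reaches. The demethylases studied here act on another residue: KDM3 enzymes remove mono- and dimethyl groups from H3K9, most KDM4 enzymes remove di- and trimethyl groups from H3K9 and H3K36, KDM1A (LSD1) is a flavin-dependent enzyme that works on mono- and dimethyl lysines, and KDM7A joins a PHD finger to a JmjC domain. A peak over their genes reports on chromatin of the gene and not on the enzyme or on H3K9 methylation.

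Broad peak lists held 34845 to 48764 peaks per library and narrow lists 73801 to 88348. The broad lists spanned 236 and 223 Mb in CTR against 253 and 244 Mb in NPM1 KD, so both NPM1 KD lists were the wider ones. Library depth, read from the background pileup that the fold and p value of each narrow peak imply, was 11.9 and 7.65 fragments in CTR and 8.99 and 11.8 fragments in NPM1 KD. CTR 1 and NPM1 KD 2 were thus the deeper libraries, and depth did not separate the groups. Genes that mark neuroblasts and neurons had a broad peak in every library in 8 of 8 cases, while none of the 4 fibroblast, 2 blood and 2 hepatocyte markers had a peak in any. Peak lists carry no RNA level, and the depletion of NPM1 could therefore not be checked in them. The study reports immunoblots of the replicates used for ChIP-seq, with less NPM1 and more H3K79me2 after the knockdown. Its own comparison of ChIP-seq signal, however, called a loss of H3K79me2 at more regions than a gain, with subtle changes. That comparison measured signal within regions and not covered length.

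In the broad lists, 7 of the 9 demethylase genes were covered further in both NPM1 KD libraries than in both CTR libraries, and none was covered less in both. The same held for 46.7% of the 11863 protein-coding windows with a broad peak, and the reverse for 2.89% of them. All 9 windows are long, from 40935 to 166364 bp, and among the 3414 windows of that length range 59.2% were covered further in both NPM1 KD libraries. The narrow lists put 8 of 9 genes higher in both NPM1 KD libraries and none lower, against 42.1% and 3.65% of 11986 windows, and against 51.2% of 3452 windows of the same length range. The mean covered percent of the 9 genes was 50.3 and 49.1 in CTR and 55.7 and 53.5 in NPM1 KD, a difference of 4.93 percentage points. With 2 libraries against 2, a two-sided exact permutation test cannot go below 0.333, so no single gene could pass it. The direction was thus common to most of the genes, and common in the genome. Its size differed between them, with the largest differences in covered percent at Kdm3a and Kdm4a. In covered bp of the broad lists Kdm4c, which has the longest window, came after Kdm3a, at 5229 bp against 4702.5 bp at Kdm4a.

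**Figure D1:**
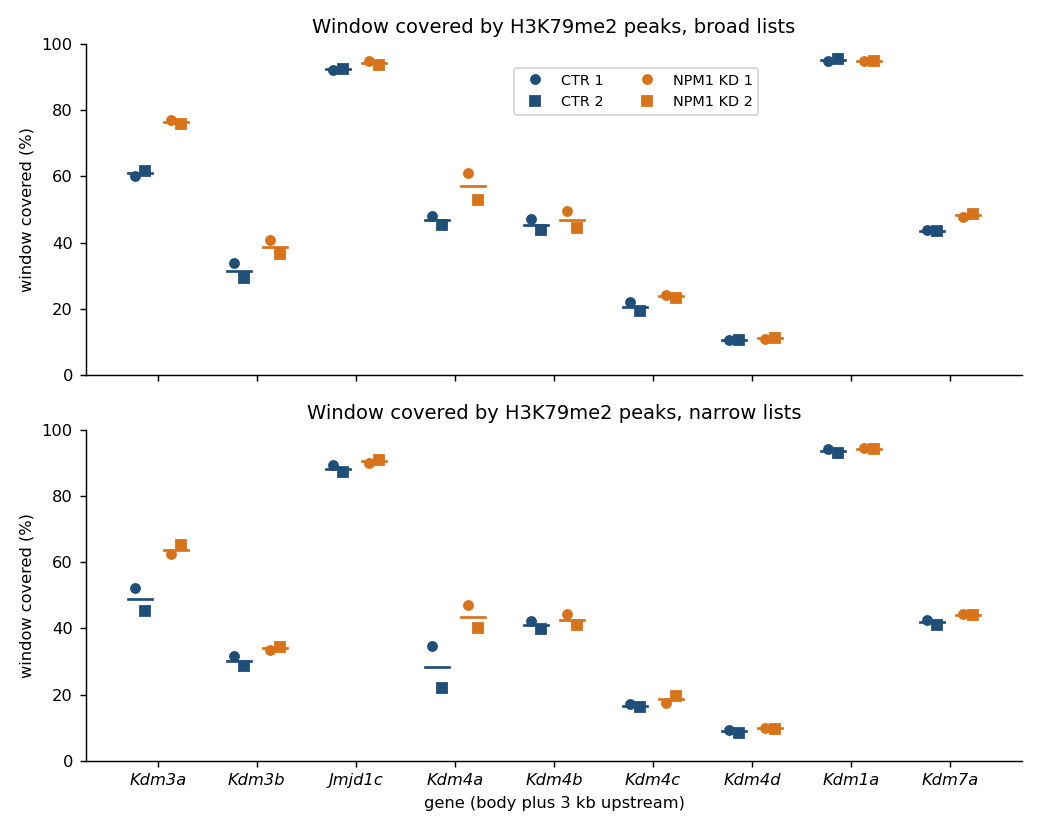
Percent of each gene window (body plus 3 kb upstream) that lay under broad (top) and narrow (bottom) H3K79me2 peaks. Points are single libraries, 2 of CTR in blue and 2 of NPM1 KD in orange, and short lines are group means. Kdm3a and Kdm4a show the widest gaps between the groups, Jmjd1c and Kdm1a are covered over most of their length in all 4 libraries, and Kdm4d over about 11% or less.

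Kdm3a, an eraser of H3K9me1 and H3K9me2 known from spermatogenesis and hypoxia, lies on the minus strand at chr6:71588972-71632990 (gene ENSMUSG00000053470.13). Under broad peaks lay 28334 and 29010 bp of its window in CTR, against 36262 and 35717 bp in NPM1 KD. Both NPM1 KD values stood above both CTR values, at 35989.5 ± 385 bp against 28672 ± 478 bp (SD, n = 2 each), and as covered percent the 4 libraries read 60.3, 61.7, 77.1 and 76.0. The difference was 7317.5 bp, or 15.6 percentage points. Since Kdm3a was singled out for its coverage in these very libraries, its values are a description and no test of them is given. The narrow lists gave 52.1%, 45.4%, 62.5% and 65.1%, a difference of 15.04 percentage points.

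The difference in covered length at Kdm3a lay far from its start. In each library one long broad peak opened 11 to 121 bp after the annotated start and ended at 19639 and 19625 bp in CTR and at 20176 and 20092 bp in NPM1 KD. The fold over background of this long peak was 4.55 and 4.00 in CTR against 5.15 and 5.12 in NPM1 KD. Both NPM1 KD folds thus stood above both CTR folds. From 0 to 10 kb the gene was covered over 98.8% to 99.9% in all 4 libraries, so covered length could hardly differ there. From 20 to 40 kb, by contrast, the covered share was 44.0% and 47.5% in CTR against 81.4% and 78.9% in NPM1 KD, so that 6877 bp of the mean difference fell in this stretch. Each CTR library had 5 separate pieces there, none longer than 4333 bp, and their positions differed between CTR 1 and CTR 2. NPM1 KD 1 had 1 piece of 15934 bp and NPM1 KD 2 1 piece of 13730 bp in their place, each followed by short pieces. The fold over background was 2.03 to 2.48 in the CTR pieces and 2.24 in the long piece of either NPM1 KD library. The short NPM1 KD pieces beyond it had folds of 1.73 to 1.89, below every CTR piece. The farthest covered base lay 33811 and 33888 bp from the start in CTR, and 37985 and 38960 bp in NPM1 KD. No peak touched the 3 kb upstream of the start or the gene beyond 40 kb in any library.

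**Figure D2:**
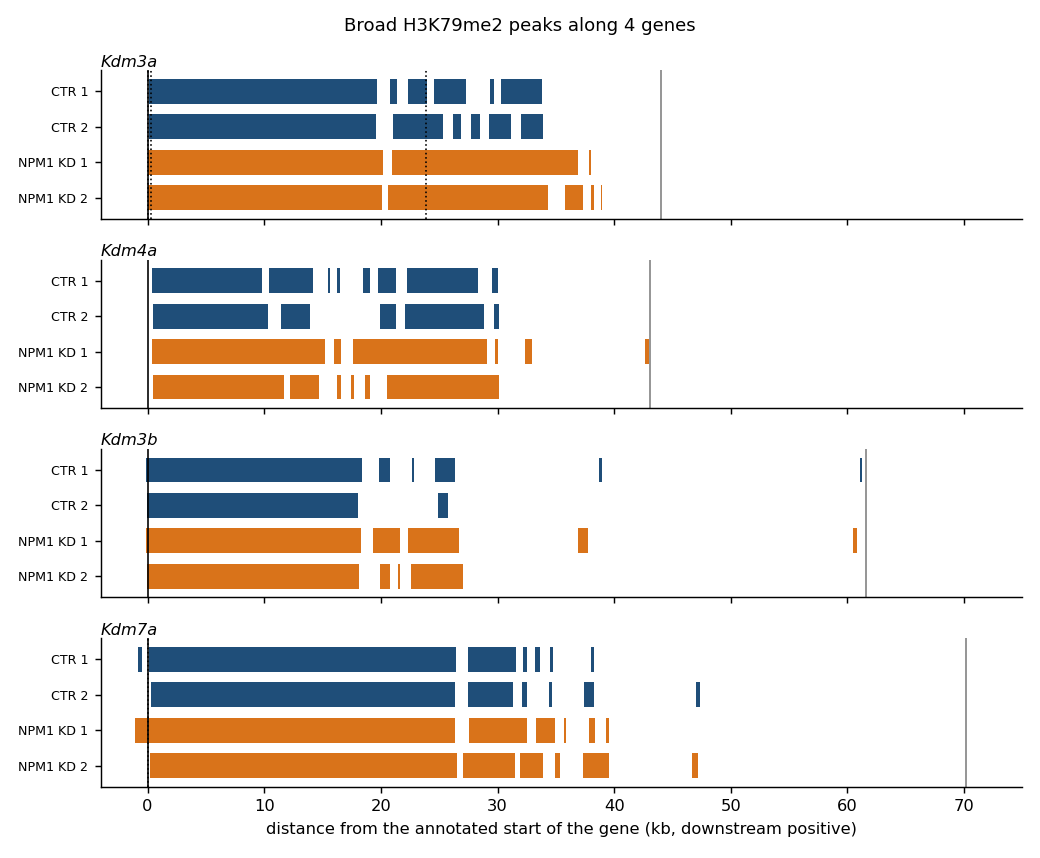
Broad H3K79me2 peaks of the 4 libraries along Kdm3a, Kdm4a, Kdm3b and Kdm7a, drawn by distance from the annotated start in kb. The solid black line is the GENCODE start, dotted lines are RefSeq starts and the grey line is the end of the gene. In Kdm3a all libraries share a first domain of about 20 kb, and the stretch beyond it is broken into short pieces in CTR and held by 1 long piece in each NPM1 KD library.

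Bases under a peak in both NPM1 KD libraries and in neither CTR library summed to 3334 bp of Kdm3a, or 7.09% of its window, and 2939 bp of them lay between 20 and 40 kb. No base showed the reverse. The longest such segment, chr6:71596072-71597236, had 1165 bp and ran from exon 17 into intron 18, numbered in the principal 26-exon transcript. In NPM1 KD 2 it lay under a weak short piece, with a fold of 1.76 and a −log10 q of 1.296. A further 773 bp at chr6:71603748-71604520 ran from intron 11 into intron 12, and 459 bp at chr6:71605256-71605714 lay in intron 11. In the narrow lists 2832 bp of Kdm3a were held in this way. The farthest of those segments ended 33977 bp from the start, before the longest broad segment. The broad segments held 40.3% G and C, as did the bases covered in all 4 libraries. Repeat-masked sequence made up 27.7% of them, 14.5% of the bases covered in all 4 libraries and 20.1% of the bases covered in none, and its part in the breaks between peaks was not tested.

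RefSeq places 3 starts in Kdm3a, at 73, 304 and 23851 bp from the GENCODE start, and the third falls inside the stretch where the groups differed in covered length. The sequence before the first start and the sequence before this internal start are shown for their contrast in CpG dinucleotides, which are in capitals (RefSeq, GRCm38.p6, gene strand). The first, chr6:71632991-71633167, is cut to the 177 bases before the GENCODE start, and the second is chr6:71609140-71609389.
Kdm3a, before the first start: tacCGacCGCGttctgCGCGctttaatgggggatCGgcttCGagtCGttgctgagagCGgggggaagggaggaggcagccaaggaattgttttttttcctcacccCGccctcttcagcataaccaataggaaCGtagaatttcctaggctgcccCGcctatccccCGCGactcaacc
Kdm3a, before the internal start: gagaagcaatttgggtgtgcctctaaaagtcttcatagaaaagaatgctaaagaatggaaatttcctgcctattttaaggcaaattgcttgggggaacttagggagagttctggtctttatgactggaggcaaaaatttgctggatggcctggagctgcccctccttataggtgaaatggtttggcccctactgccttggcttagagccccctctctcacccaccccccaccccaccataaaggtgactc
The 250 bases before the first RefSeq start held 20 CpGs, a number that 17.9% of the 32851 mouse promoters in the table reach, where the median is 6. The internal start had no CpG in its 250 bases, as in 7.87% of promoters. Narrow peaks began right at the first start, with 963 and 941 of its first 1000 bp covered in CTR and all of them in NPM1 KD. At the internal start the 1000 bp upstream were covered over 635, 327, 684 and 881 bp and the 1000 bp downstream over 293, 537, 1000 and 857 bp, so narrow peaks lay on both sides of it in every library, and more so downstream in both NPM1 KD libraries. In the broad lists the 1000 bp downstream were covered over 412 bp in CTR 1 and completely in the other 3 libraries, CTR 2 included.

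The primer pair that the study used for ChIP-qPCR at Kdm3a was matched to the genome to see which stretch it reads, and each primer had 1 match in the gene and the 5 kb around its window.
Forward primer: tcaactgtcccgttaccaagg
Reverse primer: ctgtttcccacaccgacgtta
The pair bounds 154 bp at chr6:71631940-71632093, 897 to 1051 bp after the start, at the border of exon 2 and intron 2. This site lay wholly inside the first domain, under a broad and a narrow peak in all 4 libraries. It lay about 19 kb before the stretch where the broad lists differed most in covered length. Covered length cannot show a change in signal at a site that every library covers. In its own comparison of ChIP-seq signal, the study lists a significant gain of H3K79me2 over a Kdm3a region that contains this site. Its ChIP-qPCR gave significant gains only at Ezh2, Ctcf and Dot1l, and thus not at Kdm3a. The study adds that strong batch effects in that assay might hide effects of the knockdown.

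The highest narrow peak of Kdm3a also sat near the start, 630 to 830 bp downstream of it. Its fold over background was 18.2 and 13.7 in CTR and 21.8 and 15.7 in NPM1 KD, from pileups of 233, 124, 217 and 200 fragments. The groups overlapped in fold, as NPM1 KD 2 lay below CTR 1. Ranked within its own list, the highest broad peak stood at percentile 86.5 and 78.9 in CTR and at 88.3 and 89.1 in NPM1 KD, a difference of 5.96. Without CTR 2, which had the lowest rank, the difference was 2.16, and in the narrow lists it was 2.25.

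Kdm3b, the closest paralogue and an eraser of H3K9me1 and H3K9me2, showed the same layout with a smaller difference. It lies at 34777047 to 34838660 of chromosome 18 on the plus strand, and its covered percent was 33.9 and 29.3 in CTR and 40.9 and 36.6 in NPM1 KD. The groups did not overlap and differed by 7.18 percentage points, with 2.73 between the deeper libraries and 11.6 between the shallower ones. A first domain ended at 18009 to 18370 bp in all 4 libraries. Between 20 and 40 kb, 3008 and 879 bp were covered in CTR and 7002 and 5350 bp in NPM1 KD, which is 4232.5 bp of a total mean difference of 4639.5 bp. This stretch holds Gm26538, a long non-coding RNA gene on the opposite strand, 19848 to 26438 bp from the Kdm3b start, and ChIP-seq cannot tell its chromatin from that of Kdm3b. The narrow lists differed by 3.96 percentage points with both NPM1 KD libraries above both CTR libraries.

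Jmjd1c, the third and longest KDM3 family gene (chr10:67096125-67256326, plus strand), was nearly full in every library, with 92.2% and 92.6% covered in CTR and 94.8% and 93.6% in NPM1 KD. One broad peak ran from before the window to 134083 bp in CTR 1 and to 135638 to 135708 bp in the other libraries. All 4 libraries covered the first 40 kb completely, and what difference there was, 3016 bp, lay beyond. The 3 kb upstream, covered in every library, lie within Reep3, which starts inside Jmjd1c and runs the other way. Covered percent of Kdm3a minus the mean of Kdm3b and Jmjd1c was -2.79 and 0.77 in CTR and 9.23 and 10.8 in NPM1 KD.

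Among the KDM4 genes Kdm4a, an eraser of H3K9me3 and H3K36me3 with Tudor domains, came closest to Kdm3a in the difference in covered percent. It lies on the minus strand at chr4:118136957-118180043 and was covered over 48.2% and 45.5% in CTR and 61.1% and 53.0% in NPM1 KD. Both NPM1 KD libraries stood above both CTR libraries, by 10.2 percentage points on average, but they differed from each other by more than the CTR libraries did, and without NPM1 KD 1 the difference was 6.15. It was 4.82 between the deeper libraries and 15.6 between the shallower ones. The narrow lists read 34.7% and 22.1% in CTR and 47.0% and 40.005% in NPM1 KD, a difference of 15.1 percentage points. At Kdm4a the difference sat nearer the start than at Kdm3a: from 10 to 20 kb the libraries covered 49.3%, 29.0%, 82.0% and 53.3%, and from 20 to 40 kb 39.4%, 42.5%, 50.2% and 47.8%. Bases held by both NPM1 KD libraries and neither CTR library summed to 1909 bp in the broad lists and to 3248 bp in the narrow lists. The longest narrow segment had 1461 bp, from intron 2 into intron 3 at chr4:118174745-118176205, 3838 to 5299 bp after the start. Repeat-masked sequence made up 49.2% of the broad segments and 20.8% of the bases covered in all 4 libraries. Covered percent of Kdm3a minus that of Kdm4a was 12.1 and 16.2 in CTR and 16.1 and 23.0 in NPM1 KD, and these values overlap between the groups.

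Kdm4b, whose product acts on the same marks, did not separate the groups in the broad lists, with 47.3% and 43.7% in CTR and 49.5% and 44.4% in NPM1 KD. NPM1 KD 2 lay below CTR 1 there, and likewise in the narrow lists at 41.0% against 42.2%. Its first domain ended 26578 to 28733 bp after the start at chr17:56326062-56402870, and shorter pieces followed, the last ending at 43271 to 57140 bp. The sign of its difference turned without CTR 2, to -0.279 percentage points, and without NPM1 KD 1, to -1.08.

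Kdm4c (chr4:74242497-74405860, plus strand) was covered over 22.0% and 19.3% in CTR and 24.2% and 23.3% in NPM1 KD, a difference of 3.14 percentage points without overlap, or 1.80 without CTR 2 and 1.87 in the narrow lists. The mark did not begin at its annotated start. No peak of either kind touched the 1000 bp on either side of that start in any library, and coverage opened at a second RefSeq start 9382 bp downstream, whose first 1000 bp were covered over 924, 880, 1000 and 866 bp. Both upstream sequences are shown, since they differ as the marks at the 2 starts do (CpGs in capitals, plus strand, RefSeq GRCm38.p6, chr4:74242247-74242496 and chr4:74251629-74251878).
Kdm4c, before the first start: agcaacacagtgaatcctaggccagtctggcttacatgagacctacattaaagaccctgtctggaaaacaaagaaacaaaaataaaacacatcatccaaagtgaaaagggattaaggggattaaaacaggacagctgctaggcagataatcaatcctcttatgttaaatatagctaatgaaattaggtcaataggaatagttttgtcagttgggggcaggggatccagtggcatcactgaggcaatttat
Kdm4c, before the second start: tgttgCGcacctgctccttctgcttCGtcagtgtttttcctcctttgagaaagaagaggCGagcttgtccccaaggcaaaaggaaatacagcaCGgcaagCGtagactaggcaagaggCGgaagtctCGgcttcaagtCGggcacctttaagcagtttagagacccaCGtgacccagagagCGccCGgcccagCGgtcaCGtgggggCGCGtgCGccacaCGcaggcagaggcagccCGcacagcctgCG
The first held no CpG and 39.6% G and C, the second 19 CpGs and 60.4%. The second also held the E-box letters CACGTG 2 times, letters that 6.02% of all promoters contain and that were picked after the sequence was read. The antisense RNA gene A230083N12Rik lies 7827 to 9218 bp from the Kdm4c start and reaches into this second sequence. From the second start on coverage was dense: 10 to 20 kb from the annotated start were covered completely in every library, and 20 to 40 kb over 84.3%, 78.5%, 92.7% and 89.9%. Beyond 40 kb the covered share was 7.42% and 4.76% in CTR and 8.53% and 8.40% in NPM1 KD, broken into several short pieces.

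Kdm4d, an H3K9me3 eraser best known from testis, carried 1 broad peak in each library, at its 5′ end. It opened upstream, at -3564 to -2865 bp from the start, and ended at 1393 to 1656 bp, with no broad peak in the rest of the 37.9 kb body in any library. The covered percent was 10.5 and 10.6 in CTR and 11.1 and 11.4 in NPM1 KD. The summit of the highest narrow peak lay at -778 to -457 bp, within Cwc15, a splicing-factor gene that starts 134 bp away on the opposite strand. The sequence between both starts, chr9:14500483-14500616 on the Kdm4d strand, is shown because both genes share it (CpGs in capitals, RefSeq GRCm38.p6).
Between Kdm4d and Cwc15: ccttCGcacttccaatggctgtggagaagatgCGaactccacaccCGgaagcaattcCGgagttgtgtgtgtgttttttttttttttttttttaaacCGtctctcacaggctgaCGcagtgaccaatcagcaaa
It held 6 CpGs. Chromatin of Kdm4d and of Cwc15 cannot be told apart here, and the 0.655 percentage points between the groups came from the edges of this shared peak.

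**Figure D3:**
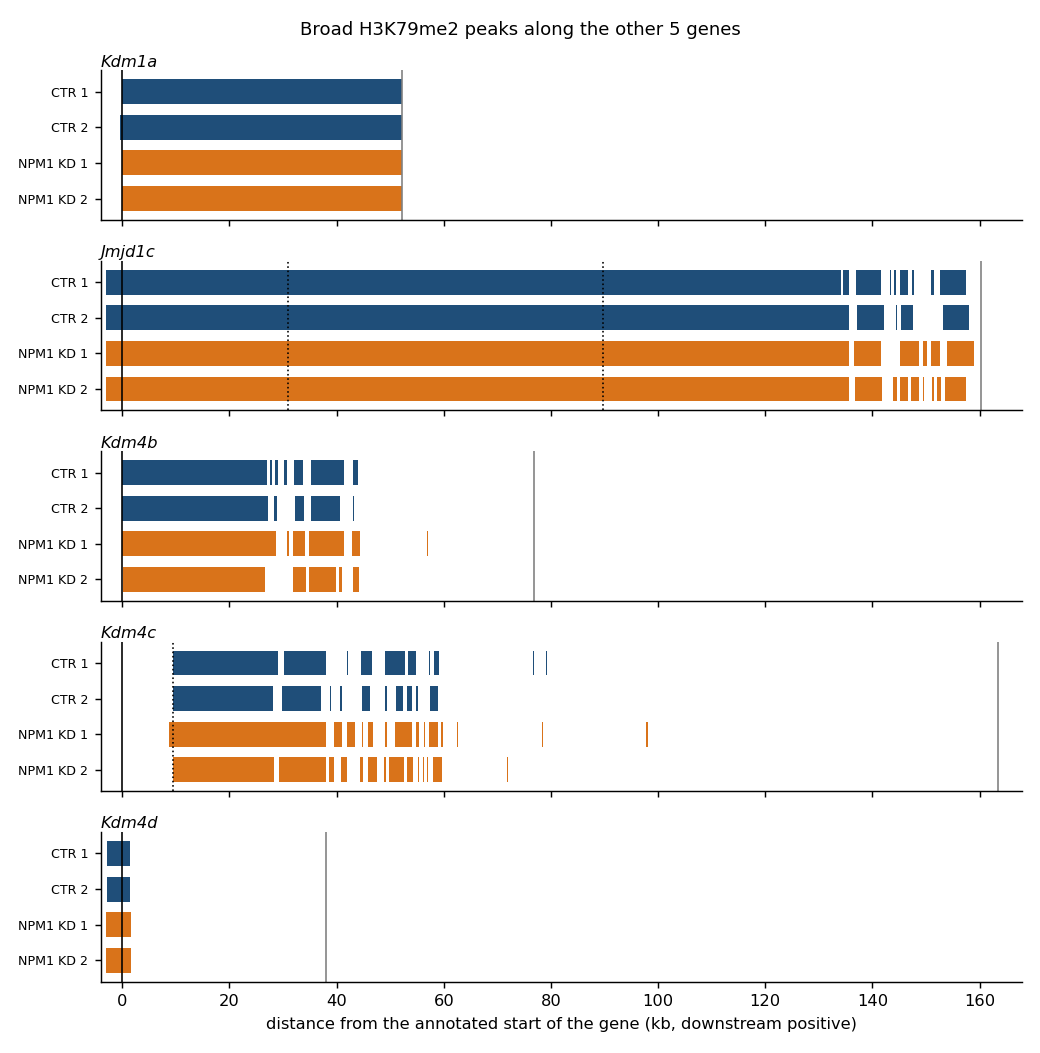
Broad H3K79me2 peaks of the 4 libraries along Kdm1a, Jmjd1c, Kdm4b, Kdm4c and Kdm4d, by distance from the annotated start in kb, with lines as for the other tracks (solid, GENCODE start, dotted, RefSeq starts, grey, end of the gene). Kdm1a is filled in all libraries, coverage of Kdm4c opens at its second start, and that of Kdm4d is confined to the 5′ end.

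Kdm1a, which encodes LSD1 (chr4:136550540-136602723, minus strand), lay under a single broad peak that covered its whole body in all 4 libraries and went on into Luzp1 on the opposite strand, up to 103952 to 103979 bp from the Kdm1a start. Its covered percent was 94.8, 95.4, 94.8 and 94.8, so the body had no room for a wider coverage, and the groups overlapped. Narrow peaks gave the other sign, with NPM1 KD above CTR by 0.729 percentage points without overlap. It also had the strongest narrow peak of the 9 genes in every library, with a fold of 41.5, 43.1, 43.6 and 31.5. Kdm7a (chr6:39136623-39206789, minus strand) was covered over 43.9% and 43.5% in CTR and 47.7% and 48.8% in NPM1 KD, a difference of 4.58 percentage points without overlap. The narrow lists gave 2.35, and broad peaks with a −log10 q of 5 or more gave 1.89. Its first domain ended at 26329 to 26538 bp in every library. Between 20 and 40 kb, 11930 and 11781 bp were covered in CTR and 13857 and 15486 bp in NPM1 KD, which again is the larger part of the difference of 3353 bp. Upstream of the start, where the divergent transcript Gm49041 lies, CTR 1 had 352 bp covered and NPM1 KD 1 had 1061 bp, and the other 2 libraries had none.

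Kdm3a was then compared with its paralogues within each library. Its covered percent exceeded the mean of the other 8 genes by 11.2 and 14.2 in CTR and by 24.1 and 25.2 in NPM1 KD, a difference of 11.96 percentage points between the groups. That mean includes Kdm1a and Jmjd1c, which had little room for wider coverage. Against Kdm4a alone the difference was 5.36 percentage points in the broad lists and -0.0525 in the narrow lists, both with overlap. The other 8 genes on their own had means of 49.1, 47.5, 53.0 and 50.7, so they too were covered further in both NPM1 KD libraries, by 3.599 percentage points. In the deeper pair of libraries, CTR 1 against NPM1 KD 2, the excess at Kdm3a grew by 14.0 percentage points, and in the shallower pair, CTR 2 against NPM1 KD 1, by 9.88. Among the 3414 windows of the same length range the difference at Kdm3a stood at percentile 99.4, that of Kdm4a at 95.1, Kdm3b at 87.4 and Kdm7a at 72.6. Kdm4c stood at 59.2, Jmjd1c at 43.2, Kdm4b at 37.1, Kdm4d at 23.9 and Kdm1a at 6.06. In the narrow lists Kdm3a and Kdm4a both stood at percentile 99.8. These ranks describe the libraries and test nothing.

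**Figure D4:**
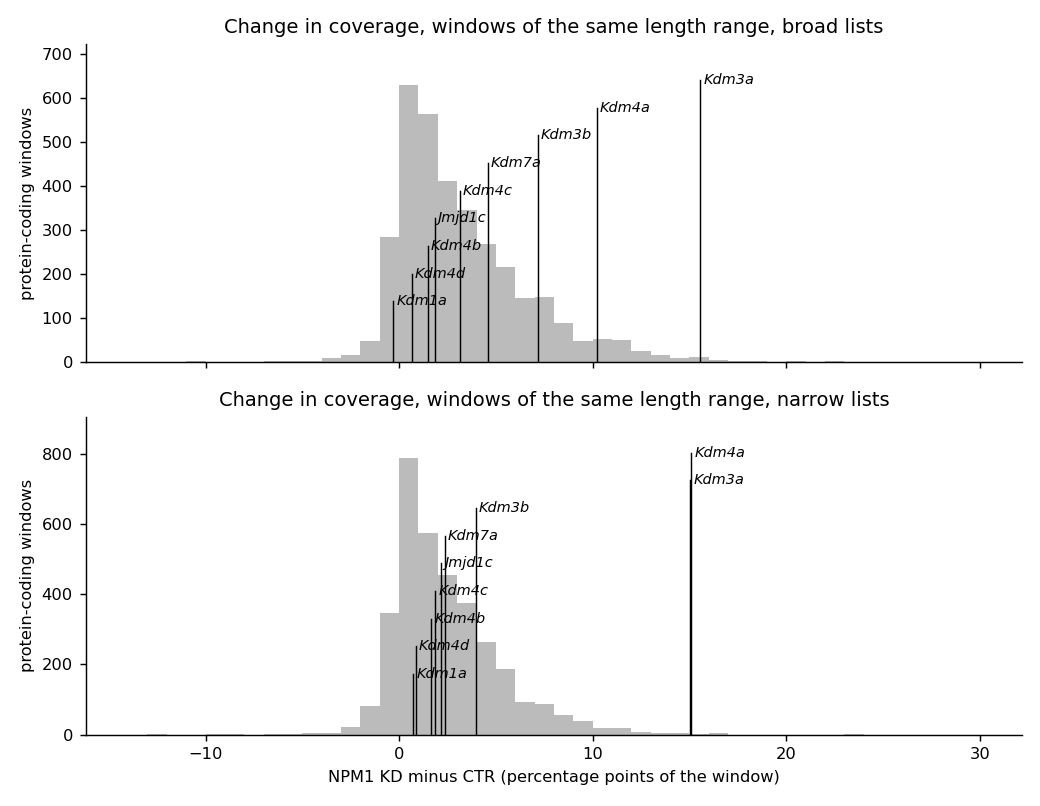
Difference in covered percent, NPM1 KD mean minus CTR mean in percentage points, over all protein-coding windows of the members' length range with a peak (grey bars, 1-point bins, broad lists on top, narrow lists below). Black lines mark the 9 demethylase genes, at heights chosen only for legibility. Kdm3a lies at 15.6 in the broad lists, and Kdm3a and Kdm4a both lie near 15 in the narrow lists.

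The stretch from 20 to 40 kb was then read in all long genes. Of the 8 genes with a body of at least 40 kb, 5 were covered further from 20 to 40 kb in both NPM1 KD libraries: Kdm3a by 34.4 percentage points, Kdm3b by 21.2, Kdm7a by 14.1, Kdm4c by 9.93 and Kdm4a by 8.10. It held the larger part of the difference at Kdm3a, Kdm3b and Kdm7a, whereas Kdm4a had 2847.5 bp at 10 to 20 kb against 1619.5 bp here, and Kdm4c 2921.5 bp beyond 40 kb against 1986 bp here. The narrow lists gave 29.04 percentage points at Kdm3a, 11.3 at Kdm3b, 9.37 at Kdm7a and 10.1 at Kdm4a for the stretch. At Kdm4c they gave 3.99 with overlap, from 74.0% and 66.4% in CTR and 71.3% and 77.1% in NPM1 KD. At Kdm4b, whose groups overlapped here in the broad lists, the narrow lists gave 7.05 without overlap. Its narrow values were 62.0% and 56.4% in CTR and 69.3% and 63.15% in NPM1 KD. The share of all long genes was not computed for the stretch in the narrow lists. Over the 3957 protein-coding genes of that length with a broad peak, 30% were covered further in both NPM1 KD libraries in this stretch of the broad lists. The mean covered percent of the stretch was 44.2 in CTR and 47.7 in NPM1 KD. Within the first 20 kb the picture differed. There Kdm3a was covered 440.5 bp further in NPM1 KD, and the excess of Kdm3a over the other 8 genes turned to -0.178 percentage points. Kdm3a had little room in that part, so its excess could hardly grow there. CTR already covered 98.98% and 98.79% of it from 0 to 10 kb and 96.39% and 96.25% from 10 to 20 kb. Kdm4a differed by 14.7 percentage points within the same 20 kb. The stretch from 20 to 40 kb was chosen after the peaks had been seen. It is counted from the GENCODE start, whereas coverage of Kdm4c opened at its start at 9382 bp. Jmjd1c has a RefSeq start at 30963 bp, inside the stretch, so it is not the same part of every gene.

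The difference at Kdm3a depended on how strong a broad peak had to be. Keeping broad peaks by their −log10 q, with a minimum of 2 the difference was 18.7 percentage points, with 3 it was 6.47, and with 4 it was 0.81. At a minimum of 3 the libraries sorted by depth, as the deeper CTR 1 and NPM1 KD 2 kept 28334 and 33755 bp and the shallower CTR 2 and NPM1 KD 1 kept 19504 and 20165 bp. At a minimum of 5 Kdm3a was left with its first domain alone, at 19537, 19504, 20165 and 20025 bp. The excess of Kdm3a over the other 8 genes then turned to -1.32 percentage points, while 6 of the 9 genes were still covered further in both NPM1 KD libraries and none less, against 36.3% and 3.88% of 10701 windows. Kdm4a had 0.77 percentage points at a minimum of 4 and 7.31 at 5, where only its first domain was left, which ended at 9777 and 10344 bp in CTR and at 15180 and 11715 bp in NPM1 KD. Jmjd1c had 3.57 and Kdm3b 0.0186. A broad peak carries 1 q value averaged over its length, and narrow peaks were therefore read in the same way. In the narrow lists with a minimum of 5, Kdm3a was covered over 50.9% and 38.4% in CTR and over 54.8% and 61.4% in NPM1 KD, which is still a difference of 13.4 percentage points without overlap, and its excess over the other 8 genes was 10.6. Only 4 of the 9 genes were then covered further in both NPM1 KD libraries, namely Kdm3a, Jmjd1c, Kdm1a and Kdm7a, and none less, against 38.5% and 3.87% of 11512 windows. At this minimum the difference at Kdm3a was thus 1.22 percentage points in the broad lists, with both NPM1 KD libraries still above both CTR libraries, and 13.4 in the narrow lists.

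**Figure D5:**
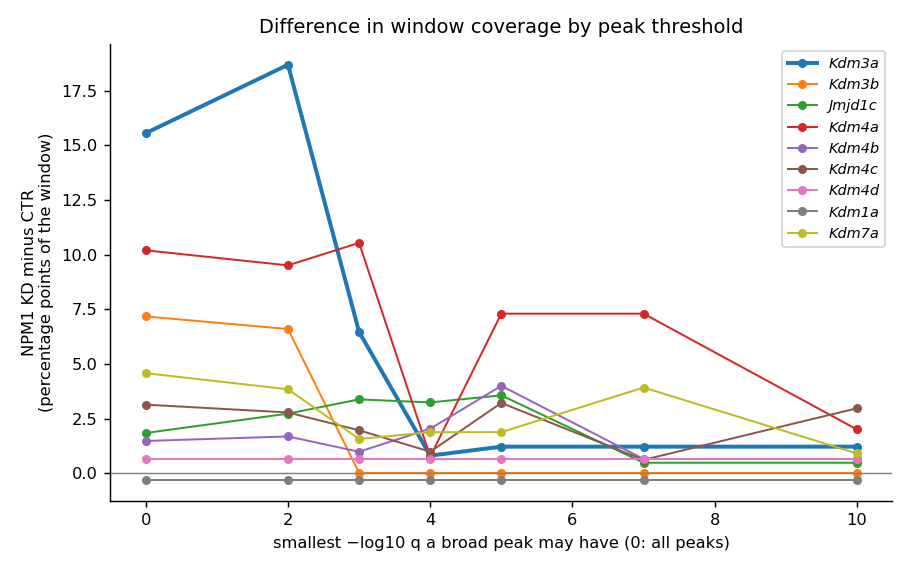
Difference in covered percent between NPM1 KD and CTR means (vertical axis, percentage points) when only broad peaks with at least the −log10 q on the horizontal axis were kept. Each line is 1 of the 9 genes. The line of Kdm3a drops from 18.7 at a minimum of 2 to 0.81 at a minimum of 4, and that of Kdm4a falls to 0.77 at 4 and is back at 7.31 at 5.

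A limma fit on log2(covered bp + 1000) over the 11863 windows found none of the 8 genes other than Kdm3a past a Benjamini-Hochberg adjusted p of 0.05. On this scale Kdm3b was higher in NPM1 KD by 0.28 ± 0.11 (SE, adjusted p = 0.372), Kdm4a by 0.27 ± 0.09 (adjusted p = 0.353) and Kdm7a by 0.14 ± 0.02 (adjusted p = 0.272), beside a median of 0.08 over all windows. The adjusted p of the other 5 genes ran from 0.350 to 0.942. For Kdm3a the fitted value was 0.32 on the same scale, given as a description. At an unadjusted p under 0.05 stood Kdm7a among the 8 genes, and in all 1806 windows, 1754 of them higher in NPM1 KD. One window passed the adjusted threshold, 0.00843% of those tested. It was that of Ddc, named after its value was seen, with no covered base in CTR and 3937 and 4043 bp in NPM1 KD.

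Another 15 genes of lysine demethylases and related proteins served as the wider family. They were Kdm1b, Kdm2a, Kdm2b, Kdm5a, Kdm5b, Kdm5c, Kdm6a, Kdm6b, Kdm8, Phf2, Phf8, Hr, Riox1, Riox2 and Jmjd6. They were not sorted by residue, so the set is not free of further H3K9 demethylases. In the broad lists 10 of them were covered further in both NPM1 KD libraries and none less, against 46.7% and 2.89% of all windows tested. Their median difference was 3.14 percentage points, which is that of the 9 genes followed here, while over all windows tested it was 2.37. In the narrow lists 7 of 15 were covered further and none less, against 42.1% and 3.65% of all windows tested. Kdm5a, an eraser of H3K4 methylation, was covered in the broad lists over 55.3% and 50.2% in CTR and 69.5% and 67.2% in NPM1 KD, a difference of 15.5 percentage points beside the 15.6 of Kdm3a. In the narrow lists the difference was 11.0 at Kdm5a and 15.04 at Kdm3a. Kdm5b differed by 8.62 percentage points in the broad lists and by 4.74 in the narrow lists. In the broad lists Hr overlapped between the groups, with 15.5% and 15.2% in CTR and 15.7% and 13.6% in NPM1 KD. Phf2 differed there by 3.14 and Phf8 by 4.36 percentage points without overlap. Kdm6b and Jmjd6 were covered completely in all 4 broad lists. Over the 4 libraries the profile most like that of Kdm3a, by Euclidean distance of the covered percent among 7234 genes with windows of 0.5 to 2 times its length, was that of Zdhhc17, a palmitoyltransferase gene, at a distance of 4.87 percentage points and with 63.7%, 64.8%, 76.5% and 77.3%. Next were 3110021N24Rik at 5.62 and Ndufs1, which encodes a subunit of respiratory complex I, at 6.35.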

How the data were processed

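Per the methods of the study and the submitters' processing notes, paired-end reads were aligned to mm10 with Bowtie2 2.3.4.1 and filtered on mapping quality, and peaks were called with MACS2 (2.2.6 in the notes, which also name Trimmomatic 0.38). The authors deposited 1 narrow and 1 broad list per library, so replicates were not pooled. Whether the pooled input served as background is not given in the sources used here. The deposited columns are a display score, the fold over background (a ratio), −log10 p and −log10 q values and, in narrow lists, the summit offset.

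Covered bp of each gene window (GENCODE M21, body plus 3000 bp upstream) were computed from merged peaks for all genes, and members were read from that table. Pileups were solved from fold = (pileup + 1) / (background + 1) and the Poisson p of narrow peaks, and 100% came out whole within 0.02. Tests were exact permutations over the 4 libraries and limma 3.58.1 (R 4.3.3) on log2(covered bp + 1000), with windows lacking a peak left out; the coverage step and limma were checked on simulated data. Named were all 9 genes, genes overlapping their windows, the 3 profiles nearest to Kdm3a, and peaks by highest fold or by segments held by 1 group alone. Members, lists and tests were chosen with earlier results of these data known. Read totals were not in the files used. The alternatives tried were other peak lists, thresholds, windows, joining of peaks and left-out libraries.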

Additional observations from a re-analysis of the deposited data

How the results depend on the processing

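The difference in covered bp at Kdm3a kept its direction under every alternative tried, at 7073 bp in the narrow lists, 6336.5 bp in lists of equal length and 6290 bp with peaks within 1 kb joined, but came to 574.5 bp with a minimum −log10 q of 5 and 440.5 bp within 20 kb of the start. The excess of Kdm3a over the other 8 genes reversed in those same settings, to -1.32 and -0.178 percentage points, which leave out the weaker and the distant broad peaks, but not in narrow lists with the same minimum of 5 (6312.5 bp and 10.6 percentage points). Within 20 kb of the start Kdm3a was nearly full in both groups, so its excess could hardly grow there. The number of the 9 genes covered further in both NPM1 KD libraries was 6 to 8, except within 20 kb of the start, where it was 3, and in narrow lists with a minimum of 5, where it was 4. Leaving out each library in turn gave 6979.5 to 7655.5 bp at Kdm3a, 10.4 to 13.5 percentage points for its excess, 3.85 to 6.01 for the mean of the 9 genes and 7 or 8 of 9 genes. That mean was 2.40 with a minimum −log10 q of 5 and 2.36 within 20 kb of the start. The eighth gene was Kdm4b without CTR 1 or NPM1 KD 2, and Kdm1a, by 0.0308 percentage points, without CTR 2. Groups separate more easily when a library is left out, so these counts are no measure of stability. Shares over all windows were not computed for them. Nor were they computed for lists of equal length, the gene body alone, joined peaks, or the 3 of 9 genes within 20 kb of the start.

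The limma count of 1 window (Ddc) became 0 in the narrow lists, in lists of equal length, within 20 kb of the start, with peaks joined, with a pseudocount of 5000 bp, on the percent scale and without the filter, 21 with a minimum −log10 q of 5, 5 with all gene types, and without any one library it was 0 to 0. The cause was not tested. With the replicate number as a block (replicate block) it was 0, with 2323 windows at an unadjusted p under 0.05 against 1806. Same-numbered libraries deviated together with a correlation of 0.259, and the study made each replicate from its own passage and transfection batch without saying whether libraries of the same number in both groups shared one. At Kdm3a the paired difference is by construction the same 7317.5 bp, and 11.96 percentage points for the excess. The pairs of similar depth, the narrow lists with a minimum of 5, the windows of like length and the stretch from 20 to 40 kb were added after seeing the data. With 2 libraries a group, no single gene can pass a permutation test, and the lists hold no signal between peaks.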
